A study of Mus musculus with 4 samples.

Results

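Collagens and the other structural proteins of the extracellular matrix were followed on 4 arrays of mouse embryonic fibroblasts (MEFs). The 49 genes were listed by name, and each was measured by at least 1 probe set that the platform annotation ties to a single gene symbol. All 49 were found, with 76 probe sets in all, among 8251 genes named on the array in this way. They were grouped by role as 7 fibrillar collagens, 7 other collagens of the interstitial matrix, 14 basement membrane genes, 6 proteoglycans, 7 genes of elastic fibres and microfibrils, and 8 adhesive and matricellular glycoproteins. Each gene is given below by its brightest probe set over all arrays, and 21 genes had more than 1.

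All cells carried the Men1 knockout, on a mixed FVB;129Sv background. Men1 encodes menin, a nuclear scaffold protein, and the series set out to find genes under its control. Of the 4 arrays, 2 held cells complemented with Men1 and 2 held cells complemented with vector, and each group had an array numbered 1 and an array numbered 2 in its title. What these numbers mark is not stated, nor whether the arrays came from separate cultures or separate clones, so p-values cover no more than array-to-array spread, and that may be technical. The cells grew in medium with 10% fetal bovine serum and were collected 24 h after seeding at 70% density.

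Fibroblasts make most of the matrix of connective tissue. Fibrillar collagens assemble outside the cell into fibrils that bear tension, and small leucine-rich proteoglycans such as decorin and lumican sit on the fibril surface. Basement membranes are a separate sheet, built on networks of laminin and type IV collagen that nidogen and perlecan join. Elastic fibres form when elastin is laid down on fibrillin microfibrils. Matricellular proteins such as tenascin C, thrombospondin 2 and periostin bear little load, and regulate how cells attach to the rest.

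The arrays had been scaled to the same mean, with median signals from 50 to 62.4. The single Men1 probe set gave 18.8 and 22.5 in Men1 cells against 18.1 and 29.5 in vector cells, so it did not separate the groups, and its position relative to the deleted and the restored sequence is not known here. The highest of 19 bacterial and yeast control probe sets was 25.9 and 27.4 for Men1 and 15.9 and 20 for vector. Where neither array of a group exceeded its own highest control, a gene is described as at control level in that group. Ratios of 3′ to 5′ signal for beta-actin were 1.18 and 1.15 on the arrays numbered 1 and 1.09 and 1.08 on those numbered 2. For Gapdh they were 0.850 and 0.782 against 0.804 and 0.743, which overlap, and for Tfrc they ran from 4.64 to 5.09 over the 4 arrays. Of 11 fibroblast markers, 8 were above the controls on all 4 arrays, among them Pdgfra, Pdgfrb and Twist1, while Thy1 and Fap were above them on none. Markers of other cell types were in part below the controls on every array, as for Epcam, Krt8, Krt5 and Krt14 of epithelium, Cdh5, Tek, Tie1 and Vwf of endothelium, and Ptprc, Adgre1, Itgam and Cd3e of blood cells. Others were above them on every array, namely Cdh1 and Krt19 of epithelium, Pecam1 and Eng of endothelium, and Cd68, Csf1r and Cd74 of blood cells. Their part in the matrix values was not tested.

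Of the 49 matrix genes, 32 were above the controls on all 4 arrays and 3 on none. These 3 were the basement membrane genes Col15a1 and Lama2 and the proteoglycan Fmod, for which no difference can be read. The share above on all arrays was 65.3%, against 66.2% of all 8251 named genes and 58.1% of all probe sets. Signals of different probe sets cannot be ranked against each other, so each gene is compared only with itself.

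**Figure D1:**
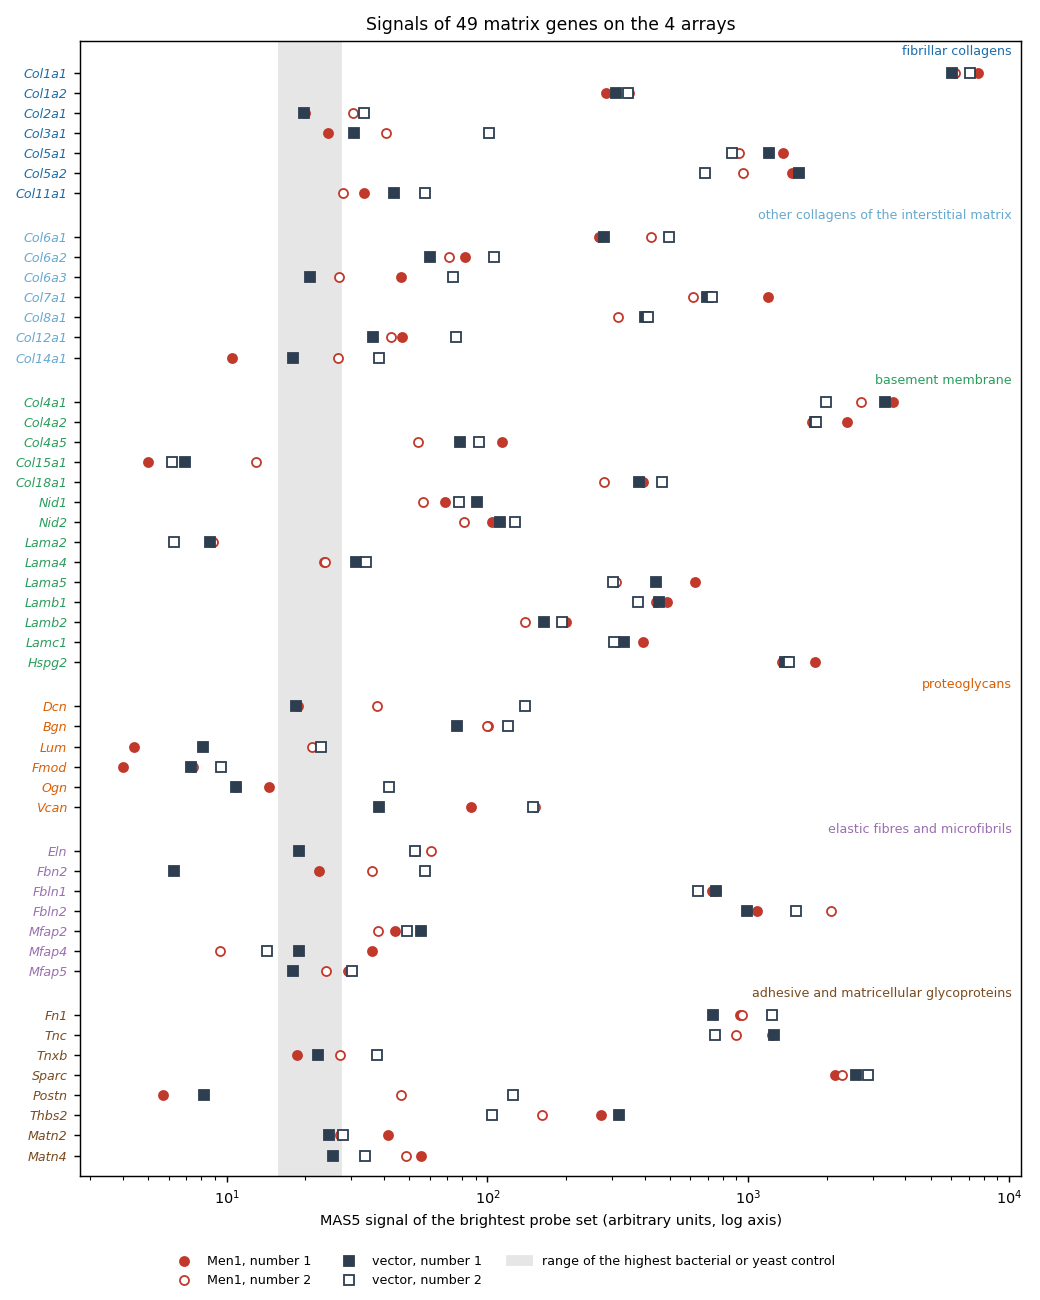
MAS5 signal (log axis) of the brightest probe set of each of 49 matrix genes, with 1 point per array: circles Men1, squares vector, filled number 1, open number 2; the grey band spans the highest control signals, 15.9 to 27.4. Open and filled symbols separate for genes such as Postn, Vcan and Col5a2, while circles and squares separate for few, among them Matn4 and Sparc.

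The first comparison asked whether restoring Men1 changed matrix expression. Values were compared as log2(signal + 16), a scale that understates the fold of dim genes, and tested with limma over all 12422 gene probe sets. No matrix gene passed an adjusted p of 0.05, nor did any of the 12422 probe sets (0%), with the smallest adjusted p at 1. At an unadjusted p under 0.05 there was 1 matrix gene, or 2.04% of the 49, against 1.88% of all probe sets and 1.68% of all named genes. That gene was higher with Men1, as were 0.91% of all probe sets, and 0 were lower, against 0.966%. The members' share was near this background. Without vector replicate 1 there were 5 such genes (10.2%, against 8.30% of all probe sets in the same fit) and without vector replicate 2 there were 4 (8.16%, against 4.50%). With Men1 replicate 1 or replicate 2 left out there were 0. Differences were above 0 for 24 genes (48.98%, against 47.2% of all probe sets) and below 0 for 25, with a median of -0.03, against a median of -0.01 over all probe sets. For 8 of the 49 genes (16.3%) both arrays of one group lay above both of the other, against 22.1% of all probe sets: 2 were higher with Men1 (10.4% of probe sets) and 6 lower (11.7%).

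Type I collagen, the main fibrillar collagen of connective tissue, overlapped between the groups. Col1a1 read 7619 and 6176 in Men1 cells against 6057 and 7092 in vector cells. Its log2 difference, Men1 minus vector, was 0.07 with a standard error (SE) of 0.21. Col1a2, which encodes the partner chain, read 283.5 and 347.7 against 311 and 345.3, a difference of -0.06 (SE 0.20). A second Col1a2 probe set read 59.6 and 118.8 in Men1 cells against 7.4 and 247.7 in vector cells, so that the vector arrays lay outside the Men1 arrays on both sides.

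Type V collagen, which sets the diameter of type I fibrils, also overlapped. Col5a1 differed by 0.13 (SE 0.29) and Col5a2 by 0.19 (SE 0.46). Col3a1, the fibrillar collagen of distensible tissues, read 24.5 and 40.7 in Men1 cells against 30.9 and 101.3 in vector cells, a difference of -0.63 (SE 0.48). Its value rested on the vector array numbered 2, since the number 1 arrays alone differed by -0.21 and the number 2 arrays by -1.05. Col11a1, a minor fibril collagen, read 33.6 and 28 in Men1 cells against 43.7 and 57.7 in vector cells. Both vector arrays were above both Men1 arrays, and the difference of -0.51 (SE 0.20, limma unadjusted p = 0.0554) did not pass. Col2a1, the cartilage collagen, lay close to the controls and differed by -0.04 (SE 0.25).

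Among other interstitial collagens, 6 of 7 were lower with Men1 in mean value and 1 was higher (median -0.15), none with separated groups. Without vector replicate 2 the split turned to 5 higher and 2 lower (median 0.26), and without Men1 replicate 2 it was 3 and 4 (median -0.02). The higher one was Col7a1, the anchoring fibril collagen, at 1185 and 613.2 against 697.3 and 727.2. The vector arrays lay between the Men1 arrays. The chains of the beaded-filament collagen VI differed by -0.14 (Col6a1), -0.06 (Col6a2) and -0.15 (Col6a3), each within its SE. Col8a1, a short-chain collagen of vessels and the eye, read 401.1 and 316.7 against 400.6 and 412.2 (difference -0.18, SE 0.20), and Col12a1, a collagen on fibril surfaces, differed by -0.19 (SE 0.31). Col14a1 was at control level with Men1 (10.5 and 26.8) and read 17.9 and 38.5 with vector. Its mean was at least 1.01-fold higher there, but the arrays overlapped (difference -0.35, SE 0.35).

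In the basement membrane, 8 of 14 genes were higher with Men1 in mean value and 6 lower (median 0.11). The split was 7 and 7 when the probe sets of a gene were averaged. Of the 8, Col15a1 and Lama2 were above the controls on no array. With dim probe sets left out, 6 were higher and 6 lower (median 0.03). Without Men1 replicate 1 the direction turned, with 4 higher and 10 lower (median -0.14). The groups did not overlap for 4 of them (28.6%, against 22.1% of all probe sets), of which Lama2 was below the controls. Nid1 and Nid2 encode the nidogens, which link laminin to type IV collagen, and both were lower with Men1. Nid1 read 68.8 and 56.7 against 91.1 and 78.1 (difference -0.35, SE 0.19). Nid2 read 103.7 and 81.4 against 111.8 and 127.2 (difference -0.33, SE 0.20). Neither passed.

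Lama4, a laminin chain of vessels and muscle, was at control level with Men1 at 23.7 and 23.9 and read 31.4 and 34.1 with vector, at least 1.14-fold higher. Its second probe set was at control level on all arrays.  Col4a1 read 3576 and 2701 in Men1 cells against 3343 and 1979 in vector cells (difference 0.27, SE 0.32), and its partner Col4a2 read 2398 and 1751 against 1804 and 1822 (0.18, SE 0.22). Both pairs overlapped. Hspg2, which encodes the proteoglycan perlecan, read 1801 and 1347 against 1385 and 1438 (difference 0.14, SE 0.22). The remaining members also overlapped: the laminin chains Lama5 (0.26, SE 0.39), Lamb1 (0.16, SE 0.19), Lamb2 (-0.08, SE 0.24) and Lamc1 (0.14, SE 0.20), and Col4a5 (-0.09, SE 0.33), a type IV chain of the kidney filter.

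Col18a1, whose product releases endostatin, had 5 probe sets. The brightest read 395.9 and 280.1 in Men1 cells against 381.9 and 466.4 in vector cells (difference -0.33, SE 0.24). The next brightest read 132.8 and 121.9 against 200 and 256.3, and differed by -0.76 (SE 0.20, limma unadjusted p = 0.0139, adjusted p = 1). Others differed by -0.31 and -0.32, and the dimmest by 0.32. The groups did not overlap for the middle 3 in brightness, which gave vector above Men1.

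Of the proteoglycans, the fibril-binding Dcn read 18.7 and 37.7 in Men1 cells against 18.5 and 139.3 in vector cells (difference -0.76, SE 0.74). Only the vector array numbered 2 stood apart. Ogn, another small leucine-rich proteoglycan, was at control level with Men1 (14.5 and 10.9), and read 10.9 and 42 with vector, which again is 1 bright array (difference -0.46, SE 0.40). Its second probe set read 5.5 and 3.7 in Men1 cells against 12.9 and 56.9 in vector cells, without overlap (difference -1.16, SE 0.46). Of these signals only the vector array numbered 2 exceeded its control. Vcan, the large hyaluronan-binding proteoglycan, read 86.1 and 151.7 in Men1 cells against 38.4 and 150 in vector cells (difference 0.46, SE 0.59). Bgn, biglycan, read 100.2 and 99.8 against 76.5 and 119.5 (difference 0.05, SE 0.24), and Lum differed by -0.15 (SE 0.39) from signals at control level in Men1 cells.

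Elastic fibre genes were higher with Men1 in mean value for 6 of 7 (median 0.15), but for 4 of 7 when the probe sets of a gene were averaged, and the arrays overlapped in each of the 6. Without vector replicate 1 the count was 3 of 7 (median -0.03), and without Men1 replicate 2 it was 4 of 7 (median 0.07). Eln, elastin itself, read 52.7 and 60.8 in Men1 cells against 19 and 52.8 in vector cells (difference 0.57, SE 0.36). Its brighter vector array all but equalled its dimmer Men1 array. Mfap2, a microfibril protein, was the exception at 44.3 and 38.1 against 55.6 and 49.1, with both vector arrays higher (difference -0.26, SE 0.18). Fbln1 and Fbln2, fibulins of the elastic fibre and basement membrane, differed by 0.09 (SE 0.18) and 0.29 (SE 0.40). Fbln1 read 727.5 and 753.3 against 750.5 and 640.9. Fbn2 (0.15, SE 0.59) and Mfap4 (0.16, SE 0.38), a microfibril-associated glycoprotein, overlapped. The brighter Mfap5 probe set differed by 0.11 (SE 0.23) and the dimmer by -0.76 (SE 0.20), but the latter was at control level with Men1, at 5.6 and 7.2.

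Matn4, which encodes the filament-forming matrilin 4, was the single matrix gene whose brightest probe set had an unadjusted p under 0.05. Dimmer probe sets of Col18a1 (limma unadjusted p = 0.0139) and Mfap5 (0.0136) also reached it, both lower with Men1. Matn4 read 55.4 and 48.5 in Men1 cells against 25.5 and 34 in vector cells. Both Men1 arrays were above both vector arrays, with a difference of 0.58 (SE 0.19, limma unadjusted p = 0.0327, adjusted p = 1). Within the arrays numbered 1 it was 0.78, and within those numbered 2 it was 0.37. Sparc, a collagen-binding matricellular protein, read 2156 and 2282 in Men1 cells against 2598 and 2867 in vector cells. Its groups separated the other way, by -0.30 (SE 0.18, unadjusted p = 0.153). Fn1, fibronectin, read 927.3 and 941.7 against 735 and 1237, and the vector arrays lay on either side of the Men1 arrays (difference -0.03, SE 0.29). Tnc (0.12, SE 0.33), Thbs2 (0.17, SE 0.55), Postn (-0.67, SE 0.96) and the matrilin Matn2 (0.23, SE 0.22) overlapped. Tnxb, a tenascin that binds collagen, was at control level in Men1 cells at 18.6 and 27.3, and read 22.3 and 37.8 in vector cells. Its mean was at least 1.06-fold higher in vector cells, but the arrays overlapped (difference -0.23, SE 0.25).

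**Figure D2:**
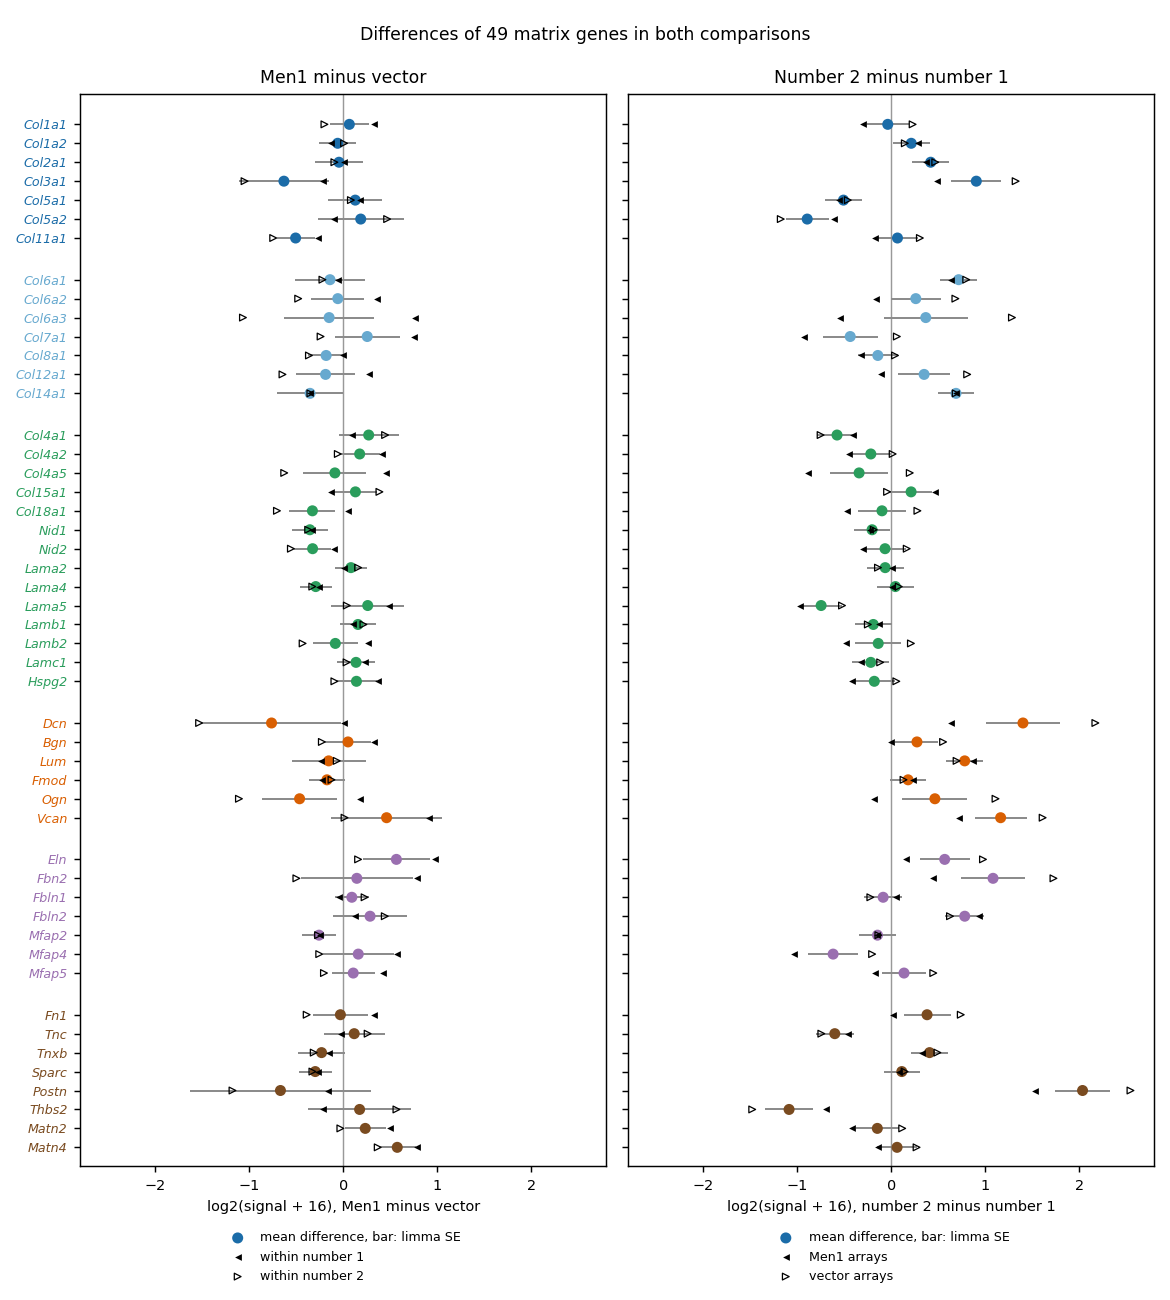
Differences of 49 matrix genes in log2(signal + 16), for Men1 minus vector (left) and number 2 minus number 1 (right); large points are means, bars are limma SE, and small triangles are the differences of single pairs of arrays. On the left the pairs of numbers 1 and 2 often fall on opposite sides of 0, while on the right Postn reaches 2.03 and Thbs2 -1.09.

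The second comparison described the same genes by the number in the array titles, which crosses the groups. It was fitted with group as a term, and it says nothing on menin. Fits by number that left out a single array had no group term, so the difference between Men1 and vector enters their values. No matrix gene and none of the 12422 probe sets (0%) passed an adjusted p of 0.05, with the smallest adjusted p at 0.340 over all and 0.349 among the members, for Postn. At an unadjusted p under 0.05 there were 15 matrix genes, 30.6% of the 49, against 9.06% of all probe sets and 9.45% of all named genes. Of the 15, 9 were higher on the arrays numbered 2, where the background is 5.81% of probe sets, and 6 were lower (3.24%). The count of 15 was 7 without vector replicate 2 (14.3%, against 7.77% of all probe sets in the same fit), 9 without Men1 replicate 1 (18.4%, against 7.68%) and 8 with a pseudocount of 1 (16.3%, against 7.40%). Of all probe sets at that p, 64.2% were higher on number 2 arrays, but 45.8% after quantile normalization. Arrays of different number did not overlap for 24 of the 49 (48.98%), close to 44.7% of all probe sets: 15 were higher (28.7% of probe sets) and 9 lower (16%). Differences were above 0 for 26 of the 49 (53.1%), against 60.8% of all probe sets.

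Periostin (Postn), a matricellular protein that promotes collagen cross-linking, had the largest difference of the 49. It read 5.7 and 8.2 on the Men1 and vector arrays numbered 1, both at control level, and 46.4 and 125.1 on those numbered 2. Both number 2 arrays were above both number 1 arrays, by at least 2.57-fold when the controls bound the dim side. The log2 difference was 2.03 (SE 0.30, limma unadjusted p = 0.000932, adjusted p = 0.349). When dim probe sets were left out of the fit its adjusted p was 0.0287, and Postn then was the 1 matrix gene that passed. That filter kept Postn only through its number 2 arrays, where it is high, so the value is no further support for the difference.

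Proteoglycans were higher in mean value on number 2 arrays for 6 of 6 (median 0.62), as were 60.8% of all probe sets (median 0.06). The count was 5 of 6 when the probe sets of a gene were averaged or vector replicate 2 was left out. Of the 6, Fmod was above the controls on no array, and Lum and Ogn on 1 each. With dim probe sets left out only 3 proteoglycans remained, all higher (median 1.16). Of these, Dcn (18.7 and 18.5 on number 1 arrays) was kept only through its number 2 arrays. This count is therefore no separate support. Of the 6 proteoglycans, Bgn, Fmod and Ogn (0.46, SE 0.34) did not pass at an unadjusted p under 0.05. Dcn had its bright array here, and differed by 1.40 (SE 0.39): 0.63 between the Men1 arrays and 2.17 between the vector arrays. Fits without vector replicate 2 and without Men1 replicate 2 gave the same values after rounding, since its number 1 signals were nearly equal. Vcan read 86.1 and 38.4 on number 1 arrays and 151.7 and 150 on number 2 arrays, a difference of 1.16 (SE 0.28), or 0.71 without vector replicate 1. Lumican (Lum) was at control level on number 1 arrays, at 4.4 and 8.1, and read 21.2 and 23 on number 2 arrays. Of these only the vector array exceeded its control, so the number 2 arrays were at least 1.04-fold higher, and the fitted 0.78 (SE 0.20) rests on signals near background. Bgn differed by 0.27 (SE 0.23) in its brighter probe set and by -0.22 in the other.

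Fibrillar collagens lay on both sides, with 4 of 7 higher in mean value and 3 lower, or 3 and 4 after quantile normalization or without vector replicate 2. Col3a1 was higher on number 2 arrays (40.7 and 101.3 against 24.5 and 30.9), with a difference of 0.90 (SE 0.27). It was 0.49 between the Men1 arrays and 1.32 between the vector arrays. In fits with no group term, Col3a1 differed by 0.38 without vector replicate 2 and by 1.43 without Men1 replicate 2. Its dimmer probe sets differed by 1.17 and 0.34. Col5a1 and Col5a2 were lower there. Col5a2 read 951.7 and 683.8 on number 2 arrays against 1464 and 1565, and did not overlap (difference -0.89, SE 0.23). Col5a1 read 919.2 and 867.4 against 1357 and 1201 (-0.51, SE 0.19), and its second probe set differed by -0.60. Col1a1 differed by -0.04 (SE 0.23), with opposite signs in the Men1 (-0.30) and vector (0.23) arrays. For Col1a2 the brighter probe set differed by 0.21 (SE 0.20) and the dimmer by 2.16 (SE 0.62), so that its probe sets gave values far apart.

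Other interstitial collagens included Col6a1, at 425.3 and 498.2 on number 2 arrays and 268 and 280 on number 1 arrays. The numbers did not overlap, with a difference of 0.72 (SE 0.20) that its second probe set matched at 0.70. Col6a2 (0.26, SE 0.27) and Col6a3 (0.37, SE 0.45), which join it in the collagen VI molecule, had opposite signs in the Men1 and vector arrays. Col14a1, a collagen on fibril surfaces, differed by 0.69 (SE 0.19) from dim signals, at 26.8 and 38.5 against 10.5 and 17.9.

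Basement membrane genes were lower in mean value on number 2 arrays for 12 of 14, as were 4871 of all 12422 probe sets. The count was 13 of 14 after quantile normalization, 11 of 14 with probe sets averaged and 9 of 14 without Men1 replicate 2. Their median was -0.19, against 0.06 over all probe sets. It was -0.36 between the Men1 arrays but -0.02 between the vector arrays, and signs matched in both groups for 6 of the 14. Col15a1 and Lama2, above the controls on no array, are among the 14. Lama5, the laminin chain of most epithelial and vascular basement membranes, read 622.6 and 440.9 on number 1 arrays and 310.4 and 301.7 on number 2 arrays (difference -0.75, SE 0.22). Col4a1 differed by -0.58 (SE 0.21), with -0.40 between the Men1 arrays and -0.75 between the vector arrays. The difference was -0.35 without vector replicate 2, in a fit with no group term. All Col4a1 signals on number 1 arrays lay above those on number 2 arrays. Lamb1 and Lamc1, the chains that pair with Lama5, also did not overlap, but differed by only -0.19 (SE 0.20) and -0.22 (SE 0.20). Col4a2 differed by -0.22 (SE 0.22), with -0.45 between the Men1 arrays and 0.01 between the vector arrays. The start sites of Col4a1 and Col4a2 lie head to head on chromosome 8 in the RefSeq annotation of GRCm38.p6, at 11312826 on the minus strand and 11312805 on the plus strand, 21 bases apart.

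Elastic fibre genes were mixed, with 4 of 7 higher, or 3 of 7 after quantile normalization or without vector replicate 1. Fbln2 read 2084 and 1529 on number 2 arrays and 1080 and 986.2 on number 1 arrays (difference 0.78, SE 0.21). Fbn2, the fibrillin of embryonic microfibrils, was at control level on number 1 arrays (22.5 and 6.3) and read 36.2 and 57.7 on number 2 arrays, at least 1.70-fold higher. Its fitted 1.08 (SE 0.34) was 0.44 between the Men1 arrays and 1.72 between the vector arrays. Without vector replicate 1, in a fit with no group term, it was 0.69. Eln differed by 0.57 (SE 0.26, unadjusted p = 0.0831). Fbln1 differed by -0.09 (SE 0.20). Mfap4 was at control level on number 2 arrays and read 36 and 18.9 on number 1 arrays, at least 1.08-fold higher there. Its dimmer probe set differed the other way, by 0.30 (SE 0.26).

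Of the adhesive and matricellular genes, 5 of 8 were higher in mean value and 3 lower, and Thbs2 and Tnc were the lower ones at an unadjusted p under 0.05. Thbs2, which limits angiogenesis and fibril growth, read 272.7 and 319.6 on number 1 arrays and 162.3 and 104.4 on number 2 arrays (difference -1.09, SE 0.26). Tnc read 1234 and 1257 against 894.1 and 743.9 (difference -0.60, SE 0.20), and its second probe set differed by -0.69. Neither gene overlapped. Fn1 differed by 0.38 (SE 0.25) and Tnxb by 0.41 (SE 0.20), both without overlap of the numbers, and Matn2 by -0.15 (SE 0.23). Sparc and Matn4 differed by 0.11 (SE 0.19) and 0.06 (SE 0.21), the latter turning to -0.12 after quantile normalization.

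**Figure D3:**
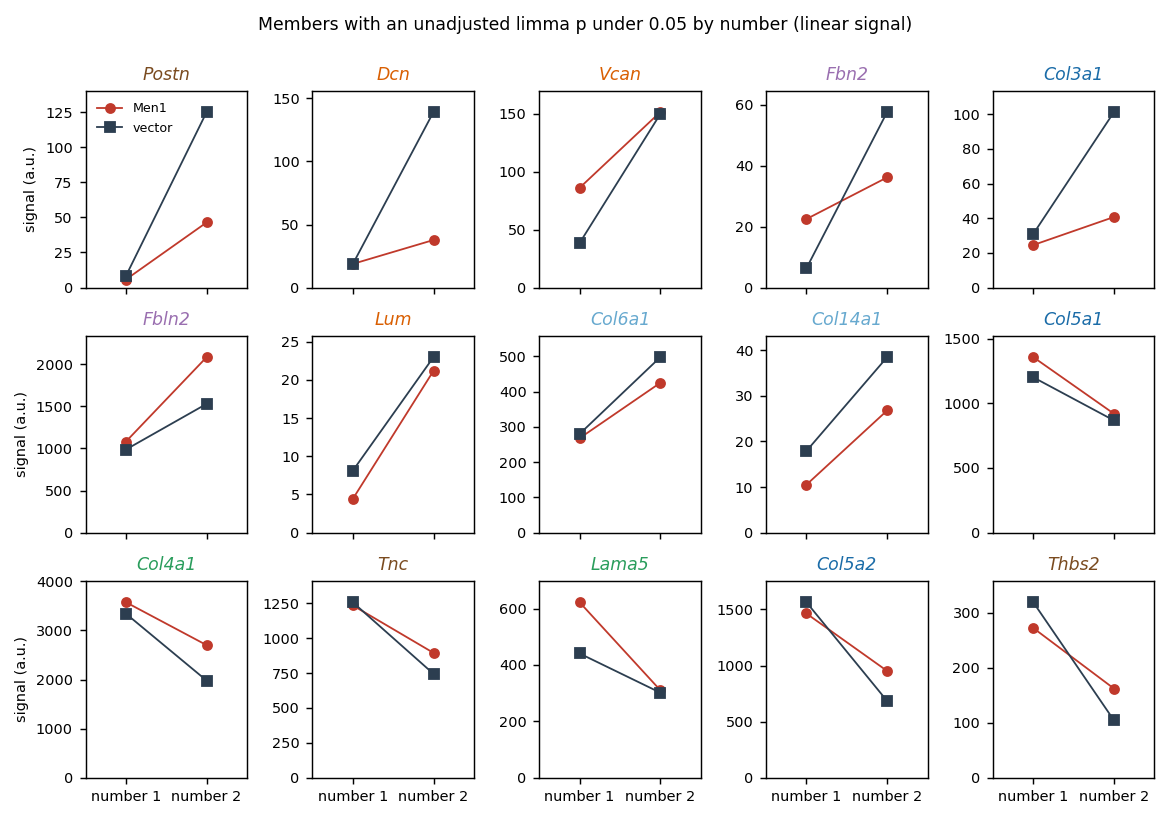
Linear signal, from 0, of the 15 matrix genes at an unadjusted limma p under 0.05 between the numbers; circles are Men1 arrays, squares are vector arrays, and lines join arrays of a group. The 9 genes from Postn to Col14a1 have both number 2 arrays above both number 1 arrays, and the 6 from Col5a1 to Thbs2 have them below.

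The promoters of 5 of these 15 genes are shown because they belong to different matrix structures and differed in both directions: periostin, collagen III, versican and collagen VI, higher on number 2 arrays, and thrombospondin 2, lower there. Sequences are from the RefSeq promoter table of GRCm38.p6, which matched 33 of the 49 genes. Each is 100 bases that end just before a start site, 5′ to 3′ on the strand of the gene, and capitals mark the motifs searched on both strands. These were the TATA box as TATAAA, the CCAAT box, the GC box as GGGCGG, the AP-1 site as TGACTCA (its other strand counts as the same motif), and the SMAD element as CAGAC. For Postn the second of the listed starts is shown, since the stretch before the first held none of these motifs.
Postn (chr3:54361007-54361106, plus strand): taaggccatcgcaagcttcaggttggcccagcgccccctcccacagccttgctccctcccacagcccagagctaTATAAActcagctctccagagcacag
Col3a1 (chr1:45311438-45311537, plus strand): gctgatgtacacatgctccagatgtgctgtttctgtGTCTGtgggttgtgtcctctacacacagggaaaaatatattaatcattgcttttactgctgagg
Vcan (chr13:89742513-89742612, minus strand): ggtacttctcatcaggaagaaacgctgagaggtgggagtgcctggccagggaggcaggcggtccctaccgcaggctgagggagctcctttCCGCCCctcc
Col6a1 (chr10:76726045-76726144, minus strand): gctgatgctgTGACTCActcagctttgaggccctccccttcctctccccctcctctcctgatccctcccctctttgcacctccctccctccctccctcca
Thbs2 (chr17:14694263-14694362, minus strand): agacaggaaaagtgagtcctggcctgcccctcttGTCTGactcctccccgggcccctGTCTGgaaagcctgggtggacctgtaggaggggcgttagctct

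No searched motif was present in all 5 stretches. In Postn, TATAAA begins at base -26 from the start site, whereas Col6a1 holds TGACTCA at -90 and Thbs2 holds CAGAC read from the opposite strand at -66 and -43. Over windows from 250 bases before to 50 after a start, TATAAA was found in 15.2% of the 33 matrix genes and 15.7% of all 27025 genes in the table. CCAAT was found in 45.5% against 41.1%, and TGACTCA in 6.06% against 5.95%. GGGCGG was found in 66.7% against 38.2%, and CAGAC in 72.7% against 53.2%. These are counts of letters and do not show that a factor binds.

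The difference by number was next set side by side in the groups, which share no array. Between the Men1 arrays, 2 of 49 genes differed by over 1 on the log2 scale, and between the vector arrays 9 did. The signs matched in both groups for 28 of 49 genes (57.1%), close to 56% of all probe sets. Over the 49 genes the Men1 and vector differences correlated with Pearson's r of 0.67, against 0.26 over the 12422 probe sets. All points come from the same 4 arrays, share their scaling and are not independent replicates. With 1 array per group and number, whether the difference by number was unequal between Men1 and vector cells could not be tested.

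**Figure D4:**
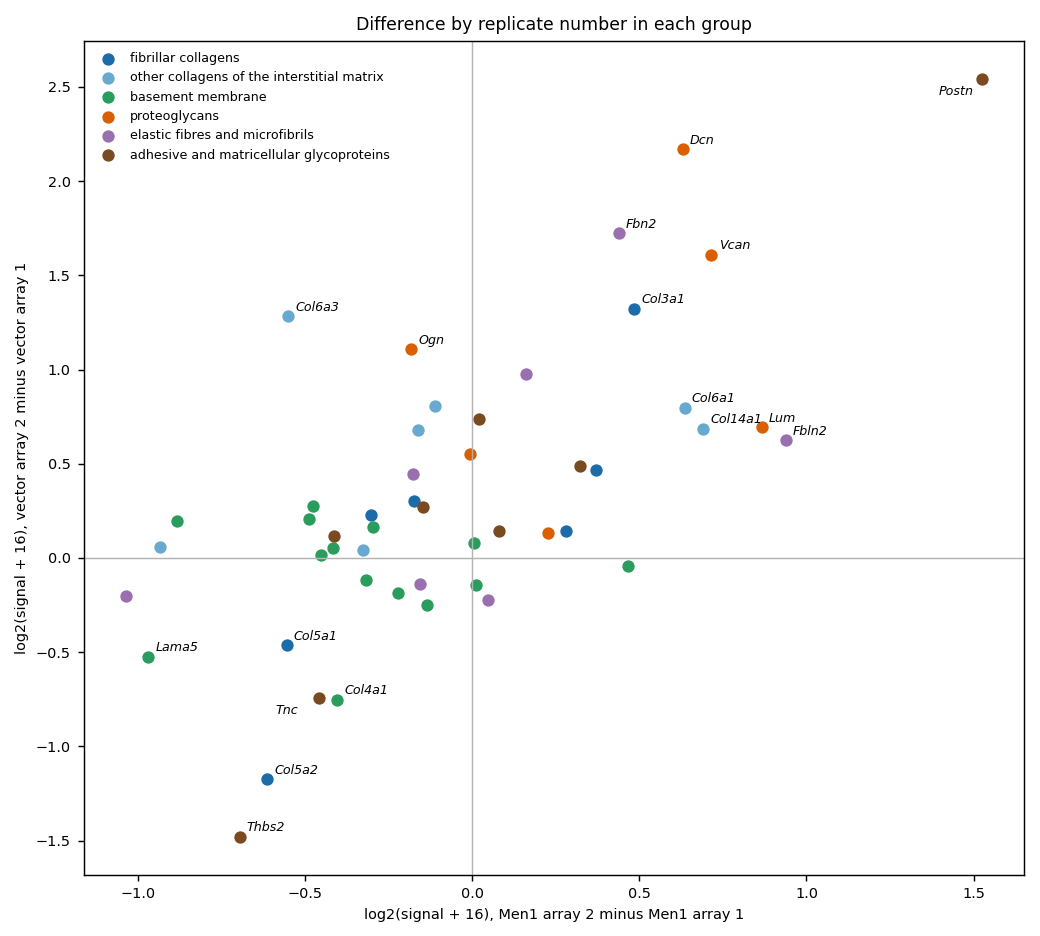
Difference in log2(signal + 16) between arrays 2 and 1, Men1 arrays on the x axis and vector arrays on the y axis, with 1 point per matrix gene coloured by role. Postn (1.52 and 2.54) and Thbs2 (-0.70 and -1.48) lie at opposite ends of the y axis, and Mfap4 (-1.03) lies farthest left. The 6 proteoglycans lie above 0 on the y axis, but Bgn (-0.005) and Ogn (-0.18) lie left of 0 on the x axis. On the x axis 11 of 14 basement membrane genes lie left of 0 (median of the 14 -0.36), but on the y axis their median is -0.02.

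Some markers of contractile cells also had lower values on number 2 arrays, though none passed after adjustment. Of 6 measured smooth muscle markers, 3 were lower on number 2 arrays at an unadjusted p under 0.05, namely Acta2, Tagln and Cnn1, where 3.24% of all probe sets were. In mean value 4 of the 6 were lower and 2 higher, and Myh11, which defines mature smooth muscle, was below the controls on all arrays. Of the 6, 4 were above the controls on every array and Des on 2. Cnn1, calponin, read 882.1 and 1548 on number 1 arrays and 217 and 199.9 on number 2 arrays. The summed signal of the 6 markers was 9282 and 11724 on number 1 arrays and 5979 and 5625 on number 2 arrays. In bulk RNA, fewer cells of a type and less RNA per cell cannot be told apart, and the part of these markers in the matrix values was not tested. Between Men1 and vector, all 6 were lower with Men1 in mean value, by -0.06 to -0.35, and none at an unadjusted p under 0.05. The skeletal muscle markers, which share Des with that list, were lower with Men1 in mean value for 6 of 7 (median -0.30), and 3 of the 7 were above the controls on every array. Of them 2 were lower at an unadjusted p under 0.05, where 0.966% of all probe sets were: Myog, a myogenic transcription factor, read 23.7 and 28.1 against 68.1 and 53.3 (difference -0.87, SE 0.20), and Tnni1, a troponin, differed by -0.57 (SE 0.18), both at a limma adjusted p of 1. Their summed signal was 311.5 and 262.5 in Men1 cells and 412.9 and 384.8 in vector cells, and their part in the Men1 comparison was not tested. The 11 fibroblast markers lay on both sides by number, with 6 higher and 5 lower (median 0.12). At an unadjusted p under 0.05, 5.81% of all probe sets were higher and 3.24% lower. Of the 11 markers 1 (9.09%) reached that p in each direction, which is near this background. The lower was the collagen receptor Ddr2, at 339.7 and 324.8 on number 1 arrays against 75.7 and 99.5 on number 2 arrays, and the higher was the transcription factor Prrx1, at 25.1 and 16.5 against 54 and 125.6.

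Other genes of the matrix pathway were counted over whole lists, and the few named from each are those with the smallest p in a comparison. Of 45 measured further structural matrix genes, none passed in either comparison after adjustment, and 32 were higher on number 2 arrays (71.1%, against 60.8% of all probe sets, with a median of 0.15). At an unadjusted p under 0.05, 4 were higher (8.89%, against 5.81%) and 1 lower (2.22%, against 3.24%) by number, and 0 of the 45 reached that p between Men1 and vector. Tgfbi, a collagen- and integrin-binding protein, read 32.8 and 24.7 on number 1 arrays and 85.2 and 101.7 on number 2 arrays (difference 1.29, SE 0.22). Npnt, an integrin ligand of basement membranes, differed by 1.24 (SE 0.23).

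Of 18 genes that process or cross-link collagen, 9 were higher and 9 lower in each comparison, with medians of 0.01 for Men1 and -0.02 by number. Lox, the lysyl oxidase that cross-links collagen and elastin, differed by -0.48 (SE 0.25) between Men1 and vector, and Tgm2, a transglutaminase, by -0.71 (SE 0.22) by number. Among 20 integrins and other collagen receptors the medians were 0.03 and -0.16. By number, 9 of the 20 did not overlap in the lower direction, where 16% of all probe sets did so, and 4 did not overlap in the higher direction (20%, against 28.7%). Itga5, the fibronectin receptor chain, read 524.4 and 731.2 on number 1 arrays and 319.8 and 127.5 on number 2 arrays (difference -1.53, SE 0.42), and Sdc2, a heparan sulfate proteoglycan, differed by 0.94 (SE 0.28).

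Agreement between probe sets was partial. Of 21 matrix genes with several, all probe sets had the same sign in 10 for Men1 minus vector and in 13 by number. For Men1 minus vector the sign differed for Col1a1, Col1a2, Col12a1, Col18a1, Lama4, Lamc1, Bgn, Fmod, Fbln1, Mfap4 and Mfap5. By number it differed for Col1a1, Col18a1, Lamc1, Bgn, Fmod, Fbln1, Mfap4 and Mfap5. Of the 15 genes at an unadjusted p under 0.05 by number, 5 had other probe sets (Col3a1, Col5a1, Col6a1, Lama5 and Tnc), and in each of these 5 all had the same sign. The Men1 differences of the 49 genes had the same sign within number 1 and within number 2 for 23 (46.9%), against 42% of all probe sets.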

How the data were processed

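Per the submitters' processing notes, the authors made the deposited values, which are linear probe set intensity, with Affymetrix Expression Console and MAS5, whose versions are not given in the sources used here. On every array the mean after trimming 2% at each end was close to 150.1, so arrays were scaled to a common level and a change in total RNA per cell cannot be seen. Per the labels' protocols, RNA was primed with poly(T) and random oligomers.

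Of 12488 probe sets, 66 controls were left out and 12422 tested with limma 3.58.1 (R 4.3.3), as two-sided tests, with p-values adjusted by Benjamini-Hochberg, on log2(signal + 16). The Men1 fit had 2 residual degrees of freedom and the number fit, with group as a term, had 1. With 2 arrays against 2, no permutation of arrays gives a p below 0.333, and the number of arrays limits the precision. The fit was tested on simulated data. The protein sequence features named in the plan were not run.

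Members, lists and the rule for named genes (all members, with every array's value for those at an unadjusted p under 0.05 and the brightest 3 of each group; from pathway lists at most 3 genes by p in each comparison) were chosen with earlier results of these data known. Col18a1, Ogn and other members given in full beyond it were chosen after their values were seen. Alternatives were another pseudocount, scaling, a filter on dim probe sets, a trended prior, each array left out, a replicate term, and the mean over probe sets. With an array left out, the number fit had no group term.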

Additional observations from a re-analysis of the deposited data

How the results depend on the processing

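In the Men1 comparison 0 matrix genes and 0 probe sets passed the adjusted limma threshold in every setting run. Probe sets at an unadjusted p under 0.05 numbered 233, but 95 without dim probe sets (fewer were tested) and 121 to 1031 without single arrays, the most without vector replicate 1. Matrix genes at that p numbered 1, but 2 with a pseudocount of 64, 2 with quantile normalization, 0 with a trended prior and 0 to 5 without single arrays. Without vector replicate 1 the 5 were Col3a1, Col11a1, Col12a1, Dcn and Ogn, all lower with Men1, and without vector replicate 2 there were 4, Vcan, Eln, Fbn2 and Matn4, all higher. Leaving out a single array turned the sign of 6 to 22 of the 49 Men1 differences. With replicate number as a replicate block the counts were 297 probe sets and 1 matrix gene. Over all probe sets the difference between arrays 2 and 1 correlated at 0.26 between the groups; with 2 arrays a group the numbers are not taken to pair samples.

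By number, 31 probe sets passed without dim probe sets, 1 of them the matrix gene Postn, which the filter kept only through its number 2 arrays. With a trended prior 7 passed, none of them a matrix gene. Matrix genes at an unadjusted p under 0.05 numbered 15, but 8 with the pseudocount lowered to 1, and from 7 to 16 when single arrays were left out (7 without vector replicate 2, 9 without Men1 replicate 1). All probe sets at that p numbered 1125, and 717 to 2000 without single arrays (717 without vector replicate 1, 2000 without Men1 replicate 2). Of them 64.2% were higher on number 2 arrays, but 45.8% with quantile normalization. For the 16 genes at that p in either comparison, 0 of 191 values under the settings changed sign. The arrays of all 16 did not overlap in that comparison, so leaving out an array or changing the pseudocount or prior could not turn a sign. The count is therefore no evidence that these differences are stable. Without single arrays the members' median ran from -0.19 to 0.06 for Men1 and from -0.08 to 0.21 by number, and quantile normalization turned the latter to -0.06. With a pseudocount of 1 the median of all probe sets by number was 0.11. Signals near the controls limit Postn, Lum, Fbn2 and Col14a1.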
